A study of Homo sapiens with 18 samples.

Results

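The comparison of aminaphtone with its control 1 h after interleukin-1β (IL-1β) rests on 6 of the 18 arrays of the study, 3 of cells given IL-1β with aminaphtone and 3 of cells given IL-1β with an equal volume of medium. The arrays were chosen by their titles, and the transcripts were all annotated transcript clusters whose mean log2 signal over the 18 arrays exceeded the 25th percentile of the annotated ones, a log2 signal of 6.19. This left 15796 of the 28869 clusters on the array, of which 14481 carry a single gene symbol, for 13805 genes. All 6 cultures were confluent ECV304 cells, starved in 1% serum for 24 h and then held for 1 h with 100 IU/ml of recombinant IL-1β, so that the drug (6 μg/ml) was the only labelled difference and no culture without IL-1β was part of the comparison. The submitters describe the 3 replicates of each group as independent.

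ECV304 was introduced as an endothelial line, is known from later typing to share its origin with a bladder carcinoma line, and carries the note of mixed endothelial and epithelial features in the labels. Its arrays were read against markers of both. All 14 epithelial and urothelial markers on the array passed the filter, with a mean log2 signal of the list between 8.18 and 8.43 in the controls and between 8.15 and 8.24 with aminaphtone. Of the 13 endothelial markers ESAM, EGFL7, CLDN5, ROBO4, CDH5 and TIE1 passed. PECAM1, KDR, TEK, ERG, EMCN, FLT1 and VWF lay under the filter. The list mean of the endothelial markers was 6.12 to 6.46 in the controls and 6.07 to 6.23 with the drug. Fibroblast and leukocyte markers passed the filter for 5 of 9 genes each. The filter left out only the lowest 25% of annotated clusters, so a marker that passed it does not show its cell type.

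IL-1β binds its receptor, which recruits MYD88, the IRAK kinases and TRAF6, and the signal ends in NF-κB and in the MAP kinases that feed AP-1, the dimers of FOS and JUN proteins. Immediate early genes such as FOS are transcribed within minutes and then shut off, while NF-κB induces cytokines, chemokines and its own inhibitors. Aminaphtone is a naphthohydroquinone ester used for capillary and venous disorders.

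The control arrays did not stand together, and this bears on every value that follows. Across the 15796 clusters the 3 aminaphtone arrays correlated with each other at 0.989 to 0.992. Control replicate 1 correlated at 0.990 to 0.992 with these 3 treated arrays, but at 0.889 with control replicate 2 and 0.958 with control replicate 3. Control replicate 2 correlated at 0.870 to 0.910 with the treated arrays and control replicate 3 at 0.942 to 0.970. With the arrays of 3 h and 6 h, control replicate 2 correlated at only 0.856 to 0.929. Control replicate 1 gave 0.944 to 0.968 with those later arrays and control replicate 3 gave 0.927 to 0.976. Why control replicate 2 lay so far from the rest of the study was not tested. By correlation at 1 h, the array labelled control replicate 1 lay with the treated arrays, and the other control arrays lay apart from them and from each other. Whether that array carries the right label was not tested, and the control means, and the values given against control replicate 1, hold only if it does. The median standard deviation over the clusters was 0.281 among the controls and 0.120 among the treated arrays, and it was larger among the controls for 86.2% of the clusters.

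**Figure D1:**
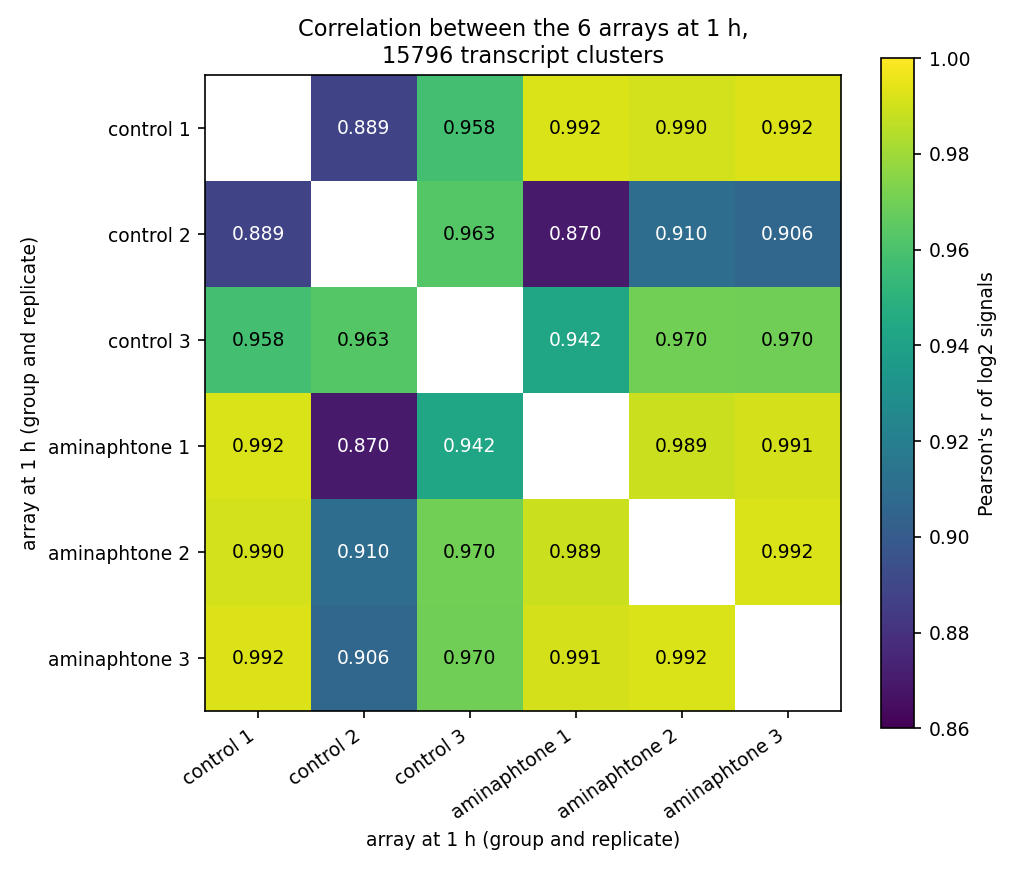
Pearson's correlation of the log2 signals of each pair of arrays at 1 h, over 15796 transcript clusters, with group and replicate on both axes. Control replicate 1 correlates at 0.990 to 0.992 with the aminaphtone arrays, and at 0.889 and 0.958 with the other control arrays.

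The distance of control replicates 2 and 3 ran along the length of the genes. With the genes in 4 equal groups of genomic length (median 4.11, 15.5, 39.0 and 121 kb in RefSeq), control replicate 2 minus control replicate 1 had a median log2 difference of 0.39, 0.34, 0.0014 and -0.56 from the shortest to the longest genes. Control replicate 3 minus control replicate 1 gave 0.20, 0.19, 0.08 and -0.14. Short genes were higher and long genes lower in both. The mean of the treated arrays minus control replicate 1 stayed between -0.0089 and 0.020 in all 4 groups. The treated mean minus the mean of all 3 controls was -0.19, -0.15, 0.0070 and 0.25, so long genes lean towards higher and short genes towards lower values in the comparison. Over the 13791 genes with a length, the rank correlation of this difference with length was 0.40, a description across genes that are not independent and that share the same 6 arrays. Several groups of genes are therefore given against all controls and against each control array. Others are given only against all controls, or with control replicate 1 alone. The part of gene length in these differences was not tested.

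**Figure D2:**
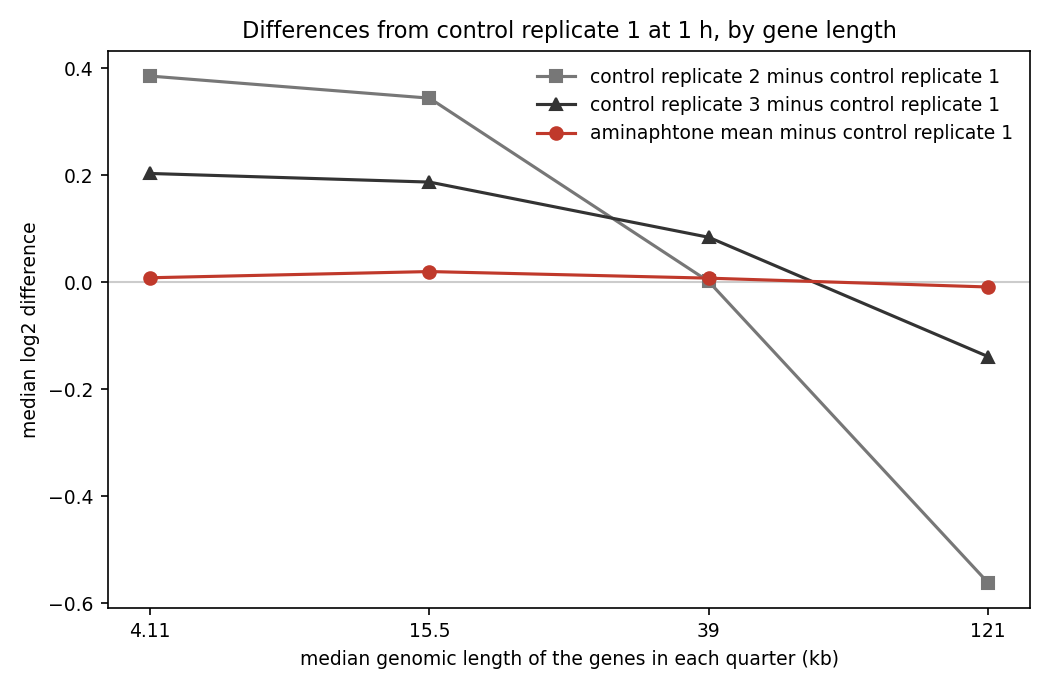
Median log2 difference from control replicate 1 at 1 h, for control replicate 2, control replicate 3 and the mean of the 3 aminaphtone arrays, in 4 equal groups of genomic gene length (median length in kb on the horizontal axis, 3447 or 3448 genes each). Control replicate 2 runs from 0.39 for the shortest genes to -0.56 for the longest, and the aminaphtone mean stays within 0.020 of 0.

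With limma on group means over all 18 arrays, 14 transcript clusters passed an adjusted p of 0.05 (0.0886% of those tested), 8 higher (0.0506%) and 6 lower (0.038%) with aminaphtone. At an unadjusted p under 0.05 there were 4858 (30.8%), 2800 higher (17.7%) and 2058 lower (13%). The groups did not overlap for 2104 clusters (13.3%), 912 with aminaphtone above control (5.77%) and 1192 below (7.55%), and all 3 pairs of equally numbered arrays shared a direction for 61.1%, upwards for 25.8% and downwards for 35.3%. Of the 14, 9 carry a single gene symbol, and 3 of these rose (MYLIP, FOS and DIPK2A) while 6 fell (PRDM1, MIDEAS, S100A3, TICAM1, IRF2BP2 and RIPK4). The other 5 clusters, all higher, carry several symbols and are not named, and 2 of them hold identical values. With the replicate numbers as a block within each time, 2465 clusters passed (15.6%), 1715 higher (10.9%) and 750 lower (4.75%). The labels state no such pairing, and it was chosen from these same data, so every value with the block holds only if the pairing does. Without control replicate 1 the count was 8516 (53.9%), and without control replicates 2 and 3 it was 6, with the lone control array assumed to vary like the other groups. With only the 6 arrays in the fit 0 passed, with 1293 at an unadjusted p under 0.05. The median difference of all clusters was -0.10, and 0.0074, -0.21 and -0.11 against control replicates 1, 2 and 3. The number of calls therefore depended on which control arrays entered, and the 9 genes are shown in all 6 arrays.

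The largest difference was that of MYLIP (transcript cluster 8117020), the ubiquitin ligase, also called IDOL, that marks the LDL receptor for degradation and is induced by the sterol-sensing liver X receptors. MYLIP read 7.51, 7.11 and 7.63 in control replicates 1, 2 and 3 and 8.79, 8.91 and 9.06 in aminaphtone replicates 1, 2 and 3. The 3 treated values lay together above all controls, with a gap of 1.17 between the groups, the widest of all clusters tested. MYLIP rose by a log2 difference of 1.504 ± 0.144 (SE, n = 3 arrays a group), or 2.84-fold, with an adjusted p of 7.49e-05 (limma). Against control replicate 1 alone, the array most like the treated ones, the difference was 1.41.

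PRDM1 (cluster 8121257), which encodes the zinc finger repressor BLIMP1, was the gene with the largest fall. PRDM1 read 9.53, 9.12 and 9.52 in the controls and 8.02, 7.93 and 8.31 with aminaphtone. No treated value reached the lowest control, and the gap of 0.807 was the widest but one. PRDM1 fell by 1.30 ± 0.122 on the log2 scale (2.47-fold, adjusted p = 7.49e-05, limma), and the difference from control replicate 1 alone was -1.44.

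FOS (cluster 7975779), the immediate early partner of the JUN proteins in AP-1, was higher in each treated array. FOS read 9.79, 9.92 and 9.64 in the controls and 10.93, 10.98 and 10.72 with aminaphtone. Both groups were tight, with an SD of 0.139 each, and the gap of 0.796 was the third of all clusters. FOS rose by 1.09 ± 0.146 (2.13-fold, adjusted p = 0.00271, limma), and by 1.08 against control replicate 1 alone. MIDEAS (cluster 7980051), a scaffold protein of a histone deacetylase complex, went the other way. MIDEAS read 10.60, 10.72 and 10.98 in the controls and 9.87, 9.77 and 9.98 with aminaphtone, again without overlap. MIDEAS fell by 0.89 ± 0.118 (1.86-fold, adjusted p = 0.00271, limma), with -0.73 against control replicate 1 alone.

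Each of these 4 genes passed in all 18 fits that left out an array, the adjusted p reaching 0.00106 for PRDM1, 0.00140 for MYLIP and 0.0354 for FOS and MIDEAS. PRDM1 (adjusted p = 0.000412) and MYLIP (0.00363) also passed without both control replicates 2 and 3, where FOS (0.103) and MIDEAS (0.136) did not. Their promoters are shown because these 4 genes carry the comparison, as far as RefSeq's promoter table for GRCh38.p14 holds them: 250 bases before the start, on the gene's own strand, with capitals on matches to any of 6 motifs searched on both strands (TGACG, the core of a cAMP response element; TGANTCA, AP-1; a κB site, read as GGG and CC with a T in the middle of the 5 bases between them; TATAAA for the TATA box; TTTGAA for the cell cycle element CHR; and CCAAT, with no overlap between the matches printed here).
MYLIP: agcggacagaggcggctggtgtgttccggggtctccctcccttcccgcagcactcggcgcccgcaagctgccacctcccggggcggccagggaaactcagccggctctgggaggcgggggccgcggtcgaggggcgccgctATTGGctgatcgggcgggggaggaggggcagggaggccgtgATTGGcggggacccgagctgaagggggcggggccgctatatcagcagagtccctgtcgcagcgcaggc
FOS: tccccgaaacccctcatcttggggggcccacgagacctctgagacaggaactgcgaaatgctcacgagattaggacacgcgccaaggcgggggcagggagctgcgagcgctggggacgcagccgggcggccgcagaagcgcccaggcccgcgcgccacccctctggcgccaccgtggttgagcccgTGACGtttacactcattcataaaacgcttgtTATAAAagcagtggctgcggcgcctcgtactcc
PRDM1: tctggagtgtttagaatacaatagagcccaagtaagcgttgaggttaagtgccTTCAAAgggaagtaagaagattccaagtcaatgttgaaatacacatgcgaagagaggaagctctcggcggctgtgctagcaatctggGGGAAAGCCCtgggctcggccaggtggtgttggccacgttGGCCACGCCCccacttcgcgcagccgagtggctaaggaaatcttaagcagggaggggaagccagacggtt
MYLIP's stretch is chr6:16128836-16129085 on the plus strand, with 73.6% G and C and CCAAT on its reverse strand at 109 to 105 and 68 to 64 bases before the start. FOS, at chr14:75278578-75278827 on the plus strand, holds TGACG at 64 to 60 and TATAAA at 33 to 28 bases before the start, the letters of its well-known cAMP response element and TATA box. PRDM1, at chr6:106086086-106086335 on the plus strand, holds, all on its reverse strand, the κB letters at 110 to 101 and 70 to 61 and TTTGAA at 197 to 192. In all 27305 promoters of the table, TGACG occurred in 21.1%, TGANTCA in 6.84%, the κB letters in 19.1%, TATAAA in 11.4%, TTTGAA in 13.9% and CCAAT in 32.7%. A match describes these letters and is no evidence of binding.

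The remaining 5 genes differed less from control replicate 1 than from the other controls. S100A3 (cluster 7920278), a small calcium- and zinc-binding protein, read 7.81, 8.55 and 8.34 in the controls and 7.07, 6.65 and 7.25 with aminaphtone. S100A3 fell by a log2 difference of -1.24 ± 0.194 (adjusted p = 0.0136, limma), or -0.82 against control replicate 1 alone. Its groups did not overlap, but control replicate 1 was the lowest control. The call was lost without control replicate 2 (adjusted p = 0.0524), control replicate 3 (0.0964), aminaphtone replicate 1 (0.0632) or aminaphtone replicate 2 (0.128).

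TICAM1 (cluster 8032899) encodes TRIF, the adaptor through which Toll-like receptors 3 and 4 reach NF-κB and the interferon regulatory factors. TICAM1 read 8.64, 9.32 and 8.93 in the controls and 8.06, 8.12 and 8.21 with aminaphtone. The treated arrays were tight (SD 0.0781) and the controls were not (SD 0.341), with control replicate 2 highest. TICAM1 fell by 0.84 ± 0.140 (adjusted p = 0.0250, limma), and the difference from control replicate 1 was -0.51. RIPK4 (cluster 8070489), a receptor-interacting kinase known from epidermal differentiation, read 9.06, 9.36 and 9.44 against 8.34, 8.37 and 8.64, and fell by 0.84 ± 0.146 (adjusted p = 0.0340, limma).

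IRF2BP2 (cluster 7925161), a corepressor that binds IRF2, read 10.32, 10.60 and 10.63 in the controls and 9.67, 9.83 and 9.88 with aminaphtone. Its fall of 0.72 ± 0.126 (adjusted p = 0.0340, limma) became -0.53 against control replicate 1. DIPK2A (cluster 8083223), a secretory-pathway protein with a kinase-like fold, read 8.30, 7.92 and 7.99 in the controls and 8.68, 8.68 and 8.71 with the drug, a rise of 0.63 ± 0.111 (adjusted p = 0.0354, limma) or 0.39 against control replicate 1. In both genes control replicate 1 was the control nearest to the treated arrays. Of the 18 fits that left out an array, TICAM1 and S100A3 passed in 14 each, IRF2BP2 in 8, RIPK4 in 7 and DIPK2A in 4, with a highest adjusted p of 0.244, 0.128, 0.289, 0.289 and 0.244. All 5 missed the threshold without control replicate 3, and without both control replicates 2 and 3.

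**Figure D3:**
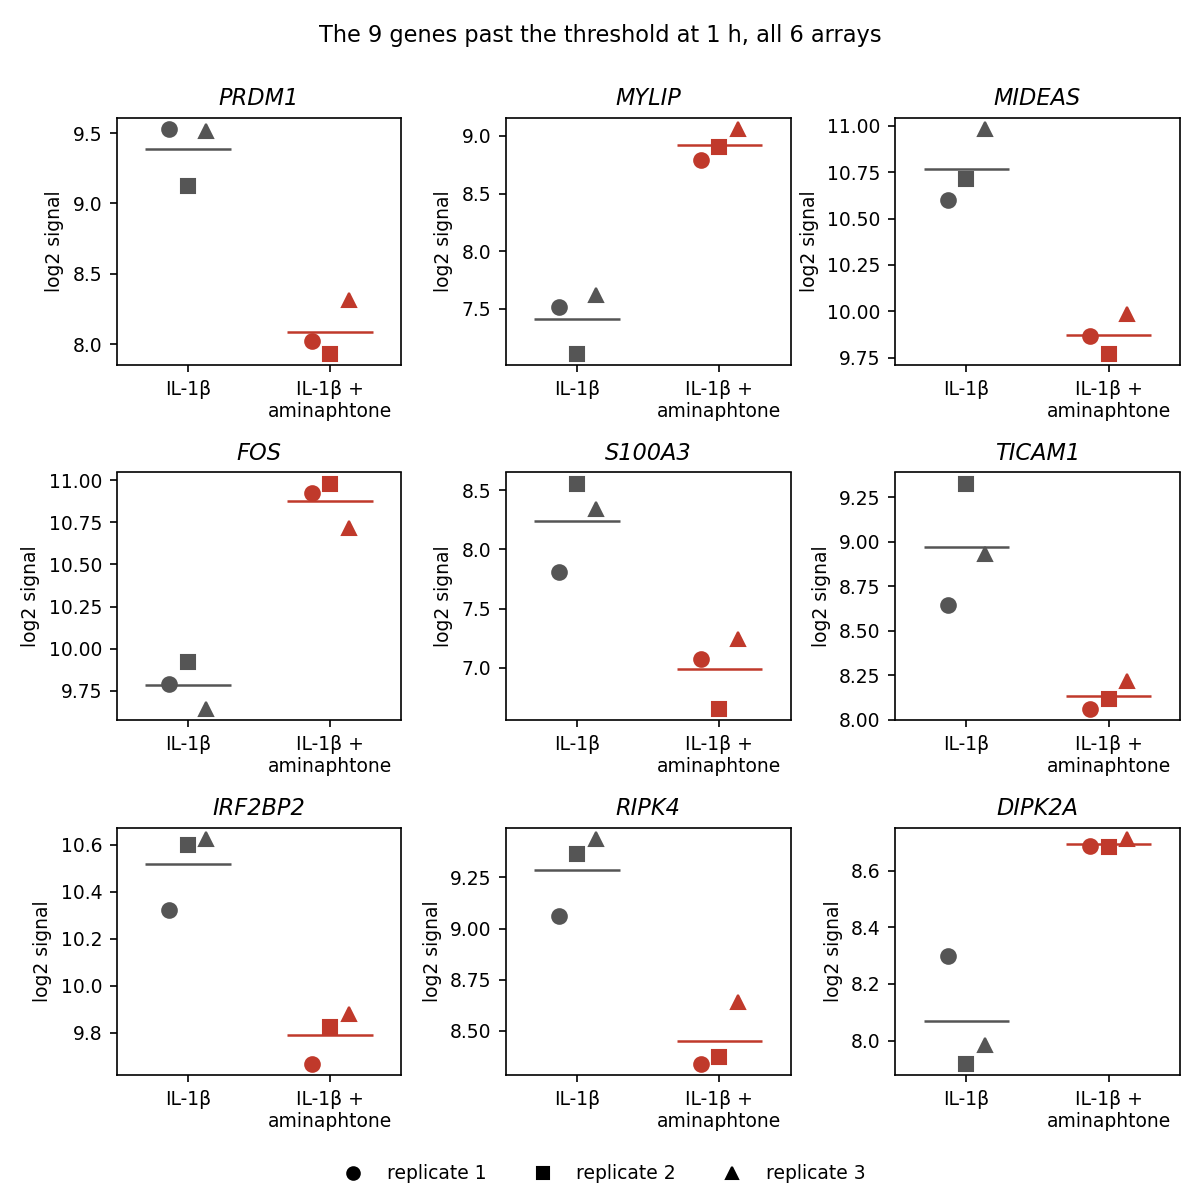
Log2 signal in each of the 6 arrays at 1 h for the 9 genes past the threshold, with IL-1β alone in grey and IL-1β plus aminaphtone in red, replicates 1, 2 and 3 as circle, square and triangle, and group means as lines (each panel has its own scale, which does not start at 0). No group overlaps, and MYLIP has the widest gap (1.17).

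For several of these genes the difference was larger in the first hour than later. The contrast of the 1 h difference with the mean of the 3 h and 6 h differences, which share no array with it, passed for 4 clusters (0.0253%), 2 higher (0.0127%) and 2 lower, and for 209 (1.32%) with the replicate block, 147 higher (0.931%) and 62 lower (0.393%). PRDM1 differed between aminaphtone and control by -0.06 at 3 h and -0.01 at 6 h, and its 1 h difference lay -1.27 ± 0.150 from the later mean (adjusted p = 0.00291, limma). For MIDEAS the later differences were 0.26 and 0.11, and the contrast was -1.07 ± 0.145 (adjusted p = 0.00865). MYLIP read 0.60 higher at 3 h (adjusted p = 0.201, limma) and 0.17 at 6 h, neither past the threshold. Its contrast was 1.12 ± 0.177 (adjusted p = 0.0349).

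DIPK2A was 0.23 higher at 3 h (adjusted p = 0.776, limma) and 0.69 lower at 6 h (a log2 difference of -0.69). The 6 h fall passed the threshold (adjusted p = 0.0209, limma). The contrast of DIPK2A, 0.85 ± 0.136 (adjusted p = 0.0349), thus takes in this later fall as well as the 1 h rise. DIPK2A was the only one of the 9 with opposite signs of over 0.6 at 1 h and 6 h. FOS, at 0.02 and 0.11 later, missed the threshold of the contrast (adjusted p = 0.0628) and passed with the replicate block (0.0182), as did IRF2BP2 (0.0628 and 0.0192) and TICAM1 (0.0900 and 0.0294). S100A3 read lower later too, at -0.45 and -1.03, neither past the threshold (adjusted p = 0.689 and 0.0503, limma). Its contrast did not pass (adjusted p = 0.264, or 0.189 with the block).

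The control levels set the frame for these hours. PRDM1 stood at a mean log2 signal of 9.39 in the controls at 1 h, 6.93 at 3 h and 7.36 at 6 h. FOS stood at 9.78, 7.72 and 7.66, and MIDEAS at 10.77, 7.99 and 8.03. All 3 were thus at their highest control level at 1 h, where the drug groups differed. MYLIP had an almost level control course of 7.42, 7.50 and 7.41, while the treated means ran from 8.92 through 8.10 to 7.58. IRF2BP2, at 10.52, 10.45 and 10.46, and TICAM1, at 8.97, 8.78 and 8.75, had level controls too.

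**Figure D4:**
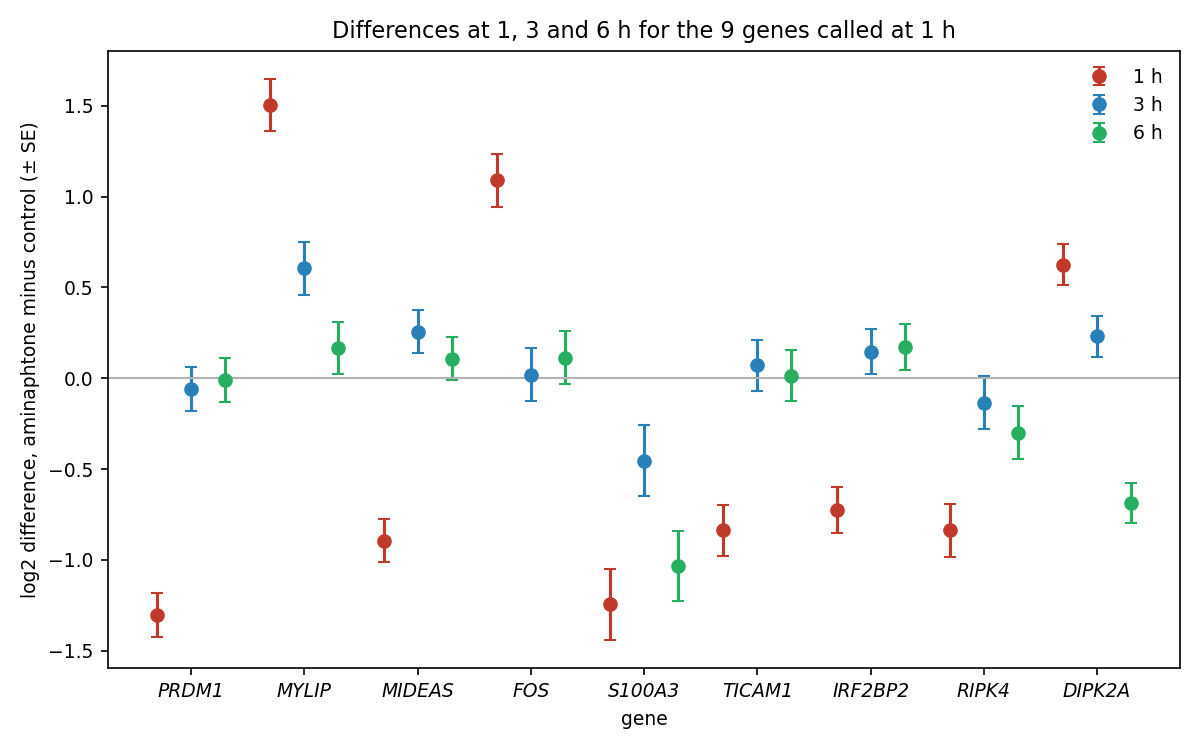
Log2 difference, aminaphtone minus control, at 1, 3 and 6 h for the 9 genes called at 1 h, with the standard error of the fit (3 arrays a group). PRDM1 runs from -1.30 at 1 h to -0.06 and -0.01, and DIPK2A from 0.63 to 0.23 and -0.69.

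Among the 18 members tested of the IL-1 receptor and Toll signalling list, the 2 called genes were TICAM1 and RIPK4, both lower (0.038% of all clusters). The list was chosen with earlier results of these data known, so this count is no independent evidence. The kinases of the IL-1 receptor itself gave smaller differences. IRAK2, a kinase-like partner of MYD88, read 8.30, 8.49 and 9.23 in the controls and 7.73, 7.89 and 8.44 with aminaphtone, so the groups overlapped (-0.66 ± 0.205, adjusted p = 0.139, or 0.0245 with the block, limma). MAP3K7, the kinase TAK1 downstream of TRAF6, read 10.00, 8.35 and 9.22 against 10.12, 9.84 and 9.89. Its difference of 0.76 was -0.05 against control replicate 1, which lay among the treated arrays. The list had 9 positive and 9 negative differences and a median of 0.06 (-0.10 for all clusters). That median changed sign with the control array, at -0.07, 0.36 and 0.10 against control replicates 1, 2 and 3. With the block 2 were higher and 3 lower (10.9% and 4.75% of all clusters).

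Transcriptional repressors held 3 of the 6 falls. PRDM1, MIDEAS and IRF2BP2 were called lower among 16 tested (0.038% of all clusters), and with the block 5 were lower and 1 higher (4.75% and 10.9% of all). IRF2BPL, the paralog of IRF2BP2, read 10.89, 11.30 and 11.20 in the controls and 10.59, 10.54 and 10.60 with aminaphtone. Its groups did not overlap, and its difference of -0.56 had an adjusted p of 0.127, or 0.0315 with the block (limma). This list was assembled with the falls of PRDM1, MIDEAS and IRF2BP2 in these data known, so its count is no independent evidence of its direction. Its median was -0.28, and -0.08, -0.44 and -0.33 against control replicates 1, 2 and 3.

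FOS rose while most immediate early genes gave negative differences, 18 of 27, or a share of positive ones of 33.3% near the 40.3% of all clusters. FOS was the 1 called gene of the list (0.0506% of all clusters were called higher). At an unadjusted p under 0.05 there were 1 higher and 5 lower (17.7% and 13% of all). With the block 2 of these genes were higher and 7 lower (10.9% and 4.75% of all). Their median was -0.19, and -0.03 against control replicate 1. NR4A2, an orphan nuclear receptor of the early response, read 11.62, 10.95 and 11.39 in the controls and 10.33, 10.33 and 10.63 with aminaphtone. Control replicate 1 was the highest of the 6, so the difference of -0.89 ± 0.185 (adjusted p = 0.0777, or 0.0190 with the block, limma) grew to -1.19 against that array.

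Among the 13 AP-1 subunits, FOS was called (0.0506% of all clusters were called higher). With the block 1 was higher and 3 lower (10.9% and 4.75% of all clusters). FOSL1, which replaces FOS in later AP-1 dimers, read 11.51, 12.11 and 11.93 against 11.36, 11.15 and 11.43, and FOSL2 read 11.19, 11.30 and 11.60 against 10.65, 10.75 and 11.04. Neither overlapped, with differences of -0.53 and -0.55 (adjusted p = 0.139 each, 0.0454 and 0.0315 with the block, limma). JUN read 10.9995, 11.16 and 11.22 against 11.35, 11.21 and 11.40, an overlapping 0.20. EGR1, an early zinc finger factor, had 13.11, 13.09 and 13.14 against 13.18, 13.16 and 13.11, a difference of 0.04 that is within the spread.

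MAP kinase feedback genes included DUSP8, a phosphatase of stress-activated MAP kinases. DUSP8 read 9.69, 10.38 and 10.36 in the controls and 9.15, 9.25 and 9.32 with aminaphtone. Control replicate 1 lay between the other controls and the treated arrays, and the difference of -0.90 ± 0.167 just missed the threshold (adjusted p = 0.0536, or 0.0101 with the block, limma). SPRY4, a Sprouty inhibitor of receptor tyrosine kinase signalling, differed by -0.67 (adjusted p = 0.122, or 0.0253 with the block), also without overlap. Of 15 members, 0 were called by limma. At an unadjusted p under 0.05, 2 were higher and 5 lower (17.7% and 13% of all clusters). With the block 1 was higher and 2 lower (10.9% and 4.75% of all clusters).

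Cytokine and chemokine genes leaned to lower values with aminaphtone. Of 20 tested, 19 had a negative difference (59.7% of all clusters had one), 0 were called by limma, and 10 were lower at an unadjusted p under 0.05 (13% of all). With the block 8 were lower and 0 higher (4.75% and 10.9% of all). The list's median difference was -0.42, and -0.18, -0.46 and -0.69 against control replicates 1, 2 and 3. The direction was thus the same against every control array, and the size was not.

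TNFSF18, which encodes GITR ligand, a costimulator of T cells, read 8.34, 6.99 and 8.02 in the controls and 6.46, 6.33 and 6.75 with aminaphtone. The treated arrays were all below the lowest control, and control replicate 1 was the highest, so the difference of -1.27 ± 0.316 (adjusted p = 0.127, or 0.0273 with the block, limma) was -1.83 against that array. The later differences of TNFSF18 were -2.09 at 3 h and -1.77 at 6 h (adjusted p = 0.0359 and 0.0438, limma). CX3CL1, the membrane-bound chemokine fractalkine, read 8.24, 8.99 and 9.29 against 7.62, 7.86 and 8.19. Its groups did not overlap, but control replicate 1 lay within 0.1 of the highest treated array, and -0.95 became -0.35 against it. TNFSF18 and CX3CL1 are among the 10 largest falls picked for groups apart and a pass with the block, so these traits are no support. The neutrophil chemokine CXCL3 read 9.57, 9.82 and 10.24 against 8.92, 8.996 and 9.42 (-0.76, adjusted p = 0.138, or 0.0172 with the block).

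CCL2, the monocyte chemoattractant, read 11.76, 11.40 and 12.12 against 11.04, 10.95 and 11.47, and IL6 read 12.54, 12.46 and 12.94 against 12.09, 12.07 and 12.49. Both overlapped by 1 treated array, replicate 3, with differences of -0.60 and -0.43 (adjusted p = 0.139 each, 0.0228 and 0.0315 with the block, limma). CXCL8, the neutrophil attractant IL-8, read 12.25, 11.90 and 12.25 against 12.16, 12.09 and 12.24. Its difference of 0.03 ± 0.134 was within the spread and turned negative under several alternatives. IL1B differed by -0.36 ± 0.258 (adjusted p = 0.290) at a treated level of 5.84 to 6.03, under the filter's 6.19.

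NF-κB subunits and feedback genes leaned to lower values too. Of 24, 0 were called by limma, 0 were higher and 12 lower at an unadjusted p under 0.05 (17.7% and 13% of all clusters), and 0 were higher and 10 lower with the block (10.9% and 4.75% of all). Their median was -0.38, and -0.20, -0.50 and -0.50 against control replicates 1, 2 and 3. BCL3, an IκB-like coactivator of p50 and p52, read 10.96, 11.56 and 11.34 against 10.17, 10.30 and 10.43, without overlap (-0.99 ± 0.194, adjusted p = 0.0682, or 0.0081 with the block, limma). BCL3 is among the 10 largest falls picked for groups apart and a pass with the block, so these traits are no support. TRAF1, an adaptor induced by NF-κB, read 8.07, 8.31 and 8.70 against 7.66, 7.30 and 7.85, and RELA, the p65 subunit, read 10.49, 11.15 and 10.82 against 10.20, 10.19 and 10.35. For RELA -0.57 became -0.24 against control replicate 1, and for BCL3 -0.66 was left. ICAM1, the leukocyte adhesion receptor, overlapped (-0.38 ± 0.121, adjusted p = 0.139, or 0.0396 with the block).

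The κB letters occurred in 10 of the 14 cytokine promoters matched (71.4%) and in 10 of the 22 of the NF-κB list (45.5%), against 19.1% of all promoters. Among the adhesion genes, SELE, the endothelial selectin, read 6.41, 6.22 and 6.25 against 6.30, 6.32 and 6.20, at the filter's edge, and VCAM1 lay under the filter with a mean of 5.67. Of the 15 adhesion genes tested 0 were called by limma. At an unadjusted p under 0.05, 1 was higher and 2 lower (17.7% and 13% of all clusters). With the block 2 were lower (4.75% of all clusters).

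EDN1, the precursor of the vasoconstrictor endothelin-1, read 10.25, 9.69 and 10.54 in the controls and 9.26, 9.19 and 9.52 with aminaphtone. The treated arrays were all below the controls, and the difference of -0.84 ± 0.178 (adjusted p = 0.0865, or 0.0188 with the block, limma) was -0.93 against control replicate 1 alone. At 3 h the difference was -0.95 (adjusted p = 0.0811, limma) and at 6 h -0.98 (adjusted p = 0.0448, limma). Against control replicates 2 and 3 the 1 h difference of EDN1 was -0.37 and -1.22, so its size depended on the control array.

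PLAT, tissue plasminogen activator, read 8.42, 8.64 and 9.41 against 7.49, 7.50 and 8.06 (-1.14 ± 0.288, adjusted p = 0.131, or 0.0172 with the block, limma), and PLAU, urokinase, overlapped at -0.58. PLAT is among the 10 largest falls picked for groups apart and a pass with the block, so these traits are no support. F3, tissue factor, read 10.58, 9.54 and 10.56 against 9.77, 9.75 and 10.38, with a difference of -0.26 ± 0.262 within the spread. Of the 19 haemostasis and vasoactive genes 0 were called by limma. At an unadjusted p under 0.05, 3 were lower and 0 higher (13% and 17.7% of all clusters). The same counts passed with the block (4.75% of all clusters lower), and the median of -0.22 was -0.03 against control replicate 1.

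Other secreted factors past the threshold with the block included PDGFB, a mitogen for mesenchymal cells, which read 9.76, 10.42 and 10.29 against 8.93, 8.99 and 9.36 (-1.06 ± 0.210, adjusted p = 0.0682, block 0.0134, limma). SERPINA3, an acute-phase protease inhibitor, read 8.05, 8.49 and 8.81 against 6.77, 7.11 and 7.72, and IGFL1, an insulin-like growth factor relative, read 7.82, 8.22 and 8.79 against 6.90, 7.27 and 7.43. All 3 are among the 10 largest falls picked for groups apart and a pass with the block, so neither is a result here. In each, replicate 1 was the lowest array of both groups. SERPINA3 differed by -1.25 (adjusted p = 0.122, block 0.0081) and IGFL1 by -1.07 (0.101 and 0.00831), with -0.85 and -0.62 against control replicate 1.

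Genes of cell division read higher in the treated arrays. Of the 26 G2/M and mitosis genes 20 had a positive difference (76.9%, against 40.3% of all clusters), and 0 were called by limma. At an unadjusted p under 0.05, 18 were higher and 0 lower (17.7% and 13% of all clusters). With the block 15 were higher (57.7%, against 10.9% of all) and 0 lower. The groups did not overlap, treated above control, for 13 (5.77% of all clusters). The list mean was 9.80, 9.35 and 9.47 in control replicates 1, 2 and 3 and 10.19, 10.00 and 9.96 with aminaphtone. Its median difference of 0.57 was 0.27, 0.87 and 0.41 against control replicates 1, 2 and 3, and -0.25 at both 3 h and 6 h. In such bulk samples more cells of a kind and more RNA per cell cannot be told apart.

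NEK2, a centrosome kinase, read 8.72, 7.90 and 7.96 in the controls and 9.22, 9.08 and 8.78 with aminaphtone. The lowest treated array was just above control replicate 1, and the difference of 0.83 ± 0.200 (adjusted p = 0.122, or 0.0172 with the block, limma) was 0.31 against that array. BUB1, a spindle checkpoint kinase, read 9.87, 8.76 and 9.19 against 10.38, 10.25 and 10.04, and CDK1, the mitotic kinase, read 9.28, 8.58 and 8.41 against 9.94, 9.42 and 9.37. MKI67, the proliferation antigen Ki-67, which is not on the list, read 10.65, 8.93 and 9.65 against 11.09, 10.69 and 10.83. All 4 genes shared this picture, with control replicate 1 close below the treated arrays and the other controls far below. For MKI67 1.12 became 0.22 against control replicate 1. MKI67 is among the 10 largest rises picked for groups apart and a pass with the block, so these traits are no support.

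The promoter of NEK2 is shown as the list member with the smallest p, from RefSeq (GRCh38.p14, chr1:211675622-211675871, minus strand, printed on the gene's strand), with capitals on the motif matches.
NEK2: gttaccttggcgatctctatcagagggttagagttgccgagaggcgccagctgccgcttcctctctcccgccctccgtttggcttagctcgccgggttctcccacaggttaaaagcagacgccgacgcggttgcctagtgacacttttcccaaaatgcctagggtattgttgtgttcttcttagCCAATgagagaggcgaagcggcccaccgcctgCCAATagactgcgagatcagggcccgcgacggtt
It holds CCAAT at 66 to 62 and 34 to 30 bases before the start, and paired CCAAT boxes are known from many cell cycle promoters. CCAAT occurred in 16 of the 20 G2/M promoters matched (80%; 32.7% of all) and the CHR letters TTTGAA in 9 (45%; 13.9% of all).

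S phase genes lay closer to the same value against each control. Of 26, 0 were called by limma. At an unadjusted p under 0.05, 13 were higher and 0 lower (17.7% and 13% of all clusters). With the block 10 were higher (38.5%, against 10.9% of all clusters) and 0 lower. The median of 0.25 was 0.26, 0.33 and 0.14 against control replicates 1, 2 and 3. RRM2, the inducible subunit of ribonucleotide reductase, read 9.64, 9.21 and 9.70 against 10.32, 10.04 and 10.19 (0.67 ± 0.142, adjusted p = 0.0865, or 0.0172 with the block, limma). Against control replicate 1 alone 0.54 remained. PCNA, the replication clamp, read 10.34, 9.81 and 10.18 against 10.72, 10.63 and 10.49, and MCM10, a replication initiation factor, read 8.90, 7.74 and 8.27 against 9.30, 9.25 and 8.96. Neither gene's groups overlapped, with 0.27 for each against control replicate 1. FAM111B, a serine protease that is not on the list, read 9.66, 8.66 and 8.34 against 10.23, 9.80 and 10.00.

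Heat shock genes leaned to higher values, by an amount that changed with the control array. Of 19, 13 had a positive difference (68.4%, against 40.3% of all clusters), 0 were called by limma, 10 were higher and 2 lower at an unadjusted p under 0.05 (17.7% and 13% of all), and 6 were higher and 1 lower with the block (10.9% and 4.75% of all). The median of 0.42 was 0.06, 0.64 and 0.49 against control replicates 1, 2 and 3. HSPD1, the mitochondrial chaperonin, read 11.07, 9.95 and 10.36 against 11.41, 11.19 and 10.9999, so its 0.73 became 0.13 against control replicate 1.

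In DNAJB1, the HSP40 partner of HSP70, the order of the controls was the reverse of that in HSPD1. DNAJB1 read 9.29, 9.87 and 9.76 in the controls and 10.45, 10.40 and 10.68 with aminaphtone. Control replicate 1 was the lowest of the 6, so the difference of 0.87 ± 0.196 (adjusted p = 0.103, or 0.0172 with the block, limma) grew to 1.21 against it. It was 0.39 at 3 h and 0.01 at 6 h.

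Among genes of the unfolded protein and integrated stress responses, 5 of 20 were higher (25%, against 10.9% of all clusters) and 1 lower (5%, near the 4.75% of all) with the block, with a median of 0.22 and 0.10, 0.12 and 0.10 against control replicates 1, 2 and 3. DDIT3, the stress factor CHOP, read 9.37, 8.84 and 9.13 against 9.83, 9.40 and 9.61, and HSPA5, the chaperone BiP, read 11.75, 10.69 and 11.62 against 11.96, 11.96 and 12.05. Both were apart, by 0.50 and 0.63 (adjusted p = 0.139 each, 0.0396 and 0.0409 with the block, limma). DDIT4, a stress-induced inhibitor of mTORC1, went lower, at 9.33, 9.73 and 10.02 against 8.53, 8.66 and 9.13 (-0.92, adjusted p = 0.127, block 0.0172). DDIT4 is among the 10 largest falls picked for groups apart and a pass with the block, so these traits are no support.

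Of 15 cholesterol synthesis genes, 0 were called by limma. At an unadjusted p under 0.05, 6 were higher and 1 lower (17.7% and 13% of all clusters). With the block 5 of these 15 genes were higher and 0 lower (33.3% higher, against 10.9% of all clusters). Their median changed sign with the control array, at 0.25, -0.44 and -0.05 against control replicates 1, 2 and 3. IDI1, which isomerises isopentenyl diphosphate, read 11.06, 10.18 and 10.31 against 11.50, 11.21 and 11.14, and SQLE, squalene epoxidase, read 11.28, 10.73 and 11.33 against 11.53, 11.53 and 11.56. Both were apart, with 0.22 and 0.25 against control replicate 1. INSIG1, which retains the sterol sensor in the endoplasmic reticulum, read 10.69, 10.46 and 10.99 against 11.08, 11.20 and 11.27, and its 0.47 was 0.49 against control replicate 1 (adjusted p = 0.139, or 0.0424 with the block, limma). In the list of the LDL receptor and its regulators, MYLIP was the 1 of 16 called (0.0506% of all clusters were called higher), and the median was -0.08.

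Survival and stress genes outside these lists gave few differences that held against control replicate 1. BCL2L11, which encodes the death-promoting BIM, read 7.74, 7.45 and 7.60 in the controls and 8.28, 8.07 and 8.47 with aminaphtone. It was higher in each treated array, by 0.67 ± 0.137 (adjusted p = 0.0688, or 0.0270 with the block, limma) and 0.53 against control replicate 1. HMOX1, haem oxygenase, read 11.60, 12.30 and 11.85 against 11.23, 11.34 and 11.41, and GCLM, which supports glutathione synthesis, read 7.28, 6.44 and 6.79 against 7.73, 7.45 and 7.65. They ran in opposite directions, at -0.59 and 0.77. NQO1, the quinone reductase, read 12.06, 11.96 and 12.24 against 12.10, 12.17 and 12.23, a difference of 0.08 ± 0.101 within the spread. Of the 22 genes of the NRF2 and antioxidant list 0 were called by limma. At an unadjusted p under 0.05, 3 were higher and 2 lower (17.7% and 13% of all clusters). With the block 2 were higher and 1 lower, near the shares of all clusters (10.9% and 4.75%). CYP1A1 and CYP1B1, the usual targets of the aryl hydrocarbon receptor, lay under the filter at 5.87 and 5.88.

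Further genes with large positive differences past the threshold with the block also lay nearer to control replicate 1 than to the mean of the controls. PIK3R1, the regulatory subunit of PI3-kinase, read 8.13, 6.78 and 7.40 against 8.80, 8.45 and 8.85 (1.26 ± 0.265, adjusted p = 0.0829, block 0.0172, limma) and STK17B, a death-associated kinase, read 8.92, 7.68 and 8.35 against 9.59, 9.33 and 9.33. Against control replicate 1 they kept 0.57 and 0.50. PCF11, a cleavage and termination factor, read 8.997, 7.78 and 8.01 against 9.60, 9.17 and 9.30. SLFN5, a Schlafen family member, and the zinc finger gene ZNF280C differed by 1.09 and 1.08 from all controls and by 0.21 and 0.20 from control replicate 1. PIK3R1, STK17B, PCF11, SLFN5 and ZNF280C are among the 10 largest rises. These were picked for groups apart and a pass with the block, so these traits are no support. Of 383 ZNF genes, 86 were higher (22.5%, against 10.9% of all clusters) and 20 lower (5.22%, near the 4.75% of all) with the block, and their median of 0.25 was -0.02, 0.46 and 0.27 against control replicates 1, 2 and 3. The 61 cytosolic ribosomal protein genes, with a median of -0.02, differed little from any control array (0.0019, -0.05 and -0.02).

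Further lists were described by their counts with the block, beside 10.9% higher and 4.75% lower of all clusters. Of 24 TGF-β, BMP and ID genes 6 were higher and 2 lower (25% and 8.33%). Of 14 G1 cyclin and CDK inhibitor genes the counts were 4 and 1 (28.6% and 7.14%), and of 17 p53 targets 4 and 1 (23.5% and 5.88%). For 12 regulators of AU-rich mRNA decay they were 4 and 3 (33.3% and 25%), and for 15 BCL2 family genes 2 and 3 (13.3% and 20%). The 15 YAP and TEAD targets, with 2 and 1 (13.3% and 6.67%), lay near both shares of all clusters. Of 14 JAK-STAT3 and SOCS genes 1 was higher and 4 lower (7.14% and 28.6%). In the next lists 0 were higher. Lower were 3 of 13 KLF factors (23.1%), 2 of 12 S100 genes (16.7%), 1 of 13 interferon genes (7.69%) and 1 of 14 metalloproteinase and TIMP genes (7.14%). For 31 hypoxia and glycolysis genes 0 passed in either direction. At an unadjusted p under 0.05 (limma), 2 were higher and 0 lower, beside 17.7% and 13% of all clusters. PMAIP1, the p53 target NOXA, read 10.50, 9.32 and 9.90 against 10.80, 10.66 and 10.53, and its 0.75 was 0.16 against control replicate 1. CISH, a SOCS family inhibitor of cytokine signalling, read 8.09, 8.39 and 8.38 against 7.59, 7.89 and 7.80 without overlap (-0.53, adjusted p = 0.110, or 0.0254 with the block, limma), with -0.33 against control replicate 1.

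**Figure D5:**
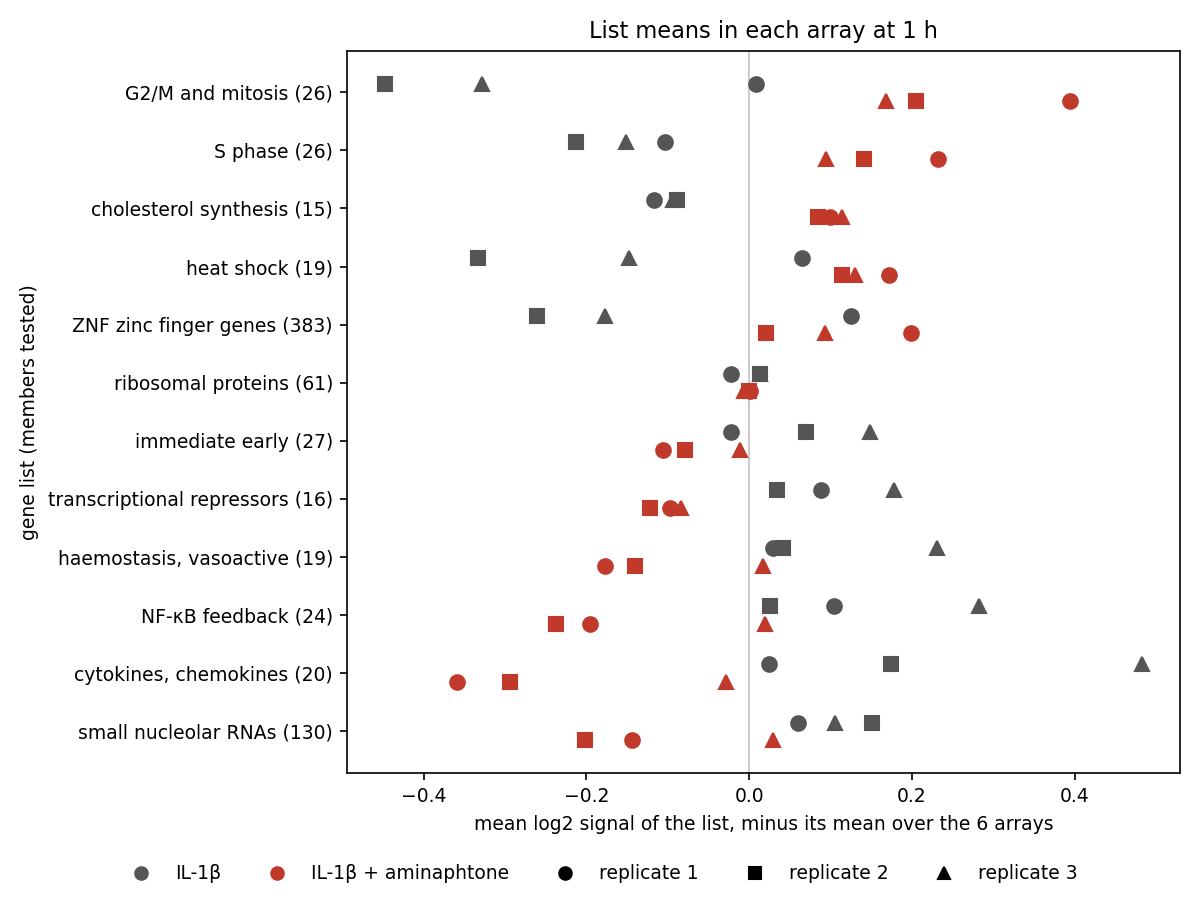
Mean log2 signal of 12 gene lists in each of the 6 arrays at 1 h, minus the list's mean over the 6 arrays, with IL-1β alone in grey and IL-1β plus aminaphtone in red and the number of genes tested in brackets. For G2/M genes control replicate 1 (9.80) lies between control replicates 2 and 3 (9.35 and 9.47) and the aminaphtone arrays (9.96 to 10.19), and ribosomal protein genes hardly spread.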

How the data were processed

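RNA of each culture was hybridised to its own Affymetrix Human Gene 1.0 ST array. What was deposited is, for each transcript cluster, a log2 signal that the authors computed by RMA in Affymetrix Expression Console, per the submitters' processing notes, whose versions are not given in the sources used here. RMA aligns the arrays' distributions, so a shift of all transcripts is not measurable. Signals of the 6 arrays had medians of 7.49 to 7.56, and their number, 3 a group, limits the precision.

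Gene names came from the platform's annotation, updated through RefSeq (19279 of 19310 single-symbol clusters matched). 1 mean per group was fitted over 18 arrays with limma 3.58.1 in R 4.3.3 (residual degrees of freedom 12, prior 4.81). Two-sided p-values went through Benjamini-Hochberg over 15796 clusters, with a threshold of 0.05. The genes of the comparison, the lists and the tests were chosen with earlier results of these data known. No count of called genes in a list is therefore independent evidence. Named are all single-symbol genes called. Also named are the 10 largest rises and 10 largest falls past the threshold with the block whose groups and pairs agreed in direction. For these, groups apart and a pass with the block were conditions of being named and are no support. Up to 4 members of each of 35 lists by p were added, with up to 6 of the contrast with later times. A panel of 20 genes completed the set (158 in all).

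The labels give equal replicate numbers to both groups but state no pairing. After removal of the group means, arrays of equal number at 1 h had correlations of 0.746, 0.411 and 0.322, all above 0.1. Arrays of unequal number at 1 h had -0.578 to 0.230, and some of these also exceeded 0.1 (0.230 and 0.197). The numbers were taken as pairs there, a choice that rests on these same data and not on the labels. Fits with them as a block within each time (9 blocks, 6 residual degrees of freedom) are given where calls change, and hold only if the pairing does. The block also covers 3 h and 6 h, where correlations of equal numbers ran from -0.106 to 0.711 and those of unequal numbers reached 0.472. Alternatives were no filter or a stricter one, arrays centred on their medians, a trended robust fit, array weights, the block, only the 6 arrays, each array left out, and, chosen after seeing the data, both control replicates 2 and 3 left out. Scripts were tested on simulated data.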

Additional observations from a re-analysis of the deposited data

Results flagged for a closer look

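For 4 genes the difference between aminaphtone and control at 1 h itself differed from the mean of the differences at 3 h and 6 h, by limma over all 18 arrays. The contrast was -1.27 for PRDM1 (adjusted p = 0.00291), -1.07 for MIDEAS (0.00865), 1.12 for MYLIP (0.0349) and 0.85 for DIPK2A (0.0349), and each gene had the direction of its 1 h difference in 3 of 3 pairs of equally numbered arrays. At 1 h PRDM1, MIDEAS and MYLIP passed in 18 of 18 fits that left out an array, and DIPK2A in 4. Groups of 3 arrays are too small for a test of single outlying arrays.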

How the results depend on the processing

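The number of calls changed most with array weights, the block and the control arrays. The 14 clusters called at 1 h were 16 without a filter, 16 with the filter at the 50th percentile, 13 (7 higher, 6 lower) with arrays centred on their medians and 10 with a trended robust fit. Array weights gave 11317, from an estimate that stopped before convergence, with weights from 0.0747 to 51.9. With the pairs as a replicate block 2465 passed, with only the 6 arrays 0 (1293 at an unadjusted p under 0.05), and with the block and only the 6 arrays 0 (3718). Leaving out each array gave 6 to 8516. The 8516 came when the first control array of 1 h was dropped, 8 when control array 3 was, 6 and 7 for the first and second treated array of 1 h, 25 for the second control array of 3 h and 8 for the second treated array of 6 h. With control arrays 2 and 3 of 1 h both dropped there were 6. The 4 clusters of the contrast with later times became 8968 with array weights, 209 with the replicate block, and 1 to 5432 when each array was left out, the 5432 again from the first control array of 1 h and 19 from the second control array of 3 h, and 1 with both control arrays dropped. The cause of these moves was not tested.

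All 37 reversals among the named genes were of differences not called. With array weights they were ARNT (-0.017), CXCL8 (-0.063), NQO1 (-0.051) and EGR1 (-0.0082). When each array was left out in turn, ARNT ran from -0.057 to 0.316, TIPARP from -0.074 to 0.427, CXCL8 from -0.089 to 0.088 and SELE from -0.057 to 0.038. With both control arrays dropped, MAP3K7 gave -0.048, ITGA2 -0.25, BNIP3L -0.12, HIF1A -0.25, ARNT -0.069, TIPARP -0.22, SPRED1 -0.091, TIA1 -0.13, ADAMTS1 -0.012, MET -0.10, RRM2B -0.061, ZMAT3 -0.085, CRIM1 -0.011, YAP1 -0.038, CLOCK -0.024 and CXCL8 -0.086, while L1CAM gave 0.060, APOE 0.0058, ENO2 0.0022, IFI6 0.0010, MMP9 0.0045, MMP24 0.015, ESAM 0.10, PDGFRB 0.052, THY1 0.088, COL3A1 0.0071 and ITGAM 0.034. Centring changed the sign of 1 of 35 list medians, that of the EGF, VEGF and PDGF ligands, which was 0.02 with all controls.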

Other observations

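Small nucleolar RNAs, the guides of ribosomal RNA modification, had mostly negative differences at 1 h. Of 130 tested, 108 had a negative difference and the groups did not overlap, treated below control, for 44 (33.8%; 7.55% of all clusters). Their median was -0.29, and -0.16, -0.34 and -0.29 against control replicates 1, 2 and 3. By limma 0 were called, 9 were higher and 25 lower at an unadjusted p under 0.05 (17.7% and 13% of all clusters). With the block 8 were higher and 8 lower (6.15% each, against 10.9% and 4.75% of all), so those calls show no lean to lower values. SNORD14E went the other way, at 8.88, 7.56 and 8.69 in the controls and 9.77, 9.42 and 9.29 with aminaphtone (1.12 ± 0.265, adjusted p = 0.122, or 0.0270 with the block). SNORD14E is among the 10 largest rises picked for groups apart and a pass with the block, so these traits are no support. Many small nucleolar RNAs lie in introns of host genes. Replication histones, 51 in all, had medians of 0.27, -0.29 and 0.15 against the 3 control arrays. With the block 1 was higher (1.96%, against 10.9% of all clusters) and 0 lower (4.75% of all).

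The inhibitors of differentiation ID2 and ID3 differed in opposite directions. ID3 read 11.03, 11.60 and 11.31 in the controls and 10.74, 10.74 and 10.79 with aminaphtone, and ID2 read 10.14, 9.93 and 9.71 against 10.59, 10.28 and 10.29. Neither pair of groups overlapped, with differences of -0.55 and 0.46 (adjusted p = 0.138 and 0.139, or 0.0396 and 0.0369 with the block, limma). PER1, a clock gene that also responds to glucocorticoids and cAMP, read 9.16, 10.10 and 9.32 against 8.62, 8.76 and 8.57 (-0.88 ± 0.176, adjusted p = 0.0682, or 0.0172 with the block), and -0.51 against control replicate 1.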
